A study of Mus musculus with 14 samples.

Results

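The aortic valves of 4 untreated mice, named Ctrl 1 to Ctrl 4, were described gene by gene by bulk RNA sequencing. They were 4 of the 14 libraries of the study, chosen by their Ctrl label alone, and each library came from the valve of 1 mouse. The 4 were wild type C57BL/6J males, 8 weeks old at the start, and they were fed the same Breslow Western Diet as every other mouse of the study, so the levels below are those of untreated mice on a hypercholesterolemic diet. The hearts were perfused with PBS and the valves were taken out under a dissection microscope, in a study of angiotensin II and of a blocker of the serotonin receptor HTR2B. The sources used here do not say whether these mice had a sham pump, and no comparison with a treated mouse was made.

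The aortic valve is a thin leaflet of layered matrix, built and kept up by valve interstitial cells and covered on both faces by endothelium. Its layers are a collagen-rich fibrosa, a spongiosa of proteoglycans and an elastin-rich ventricularis. The hinge of the leaflet meets the smooth muscle of the aortic root on one side and ventricular and atrial muscle on the other, and a few macrophages and pigmented melanocytes live in the normal mouse valve. A bulk library holds the RNA of all these cells at the same time, so that fewer cells of a type and less RNA per cell cannot be told apart.

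The libraries held 45656578 to 69355531 counts. Levels are given as TPM, that is counts divided by the exonic length of the gene and scaled to the same total in each library. The spread between mice is the SD of log2(TPM + 1) over the 4 mice, on which 1 unit is a doubling. A mean of at least 1 TPM was reached by 15836 of the 56941 genes of the table, of which 13000 were protein-coding and 1177 were long noncoding RNAs, and 13867 genes reached 1 TPM in every mouse. The label was checked against defining genes. The endothelial gene Pecam1, the interstitial genes Dcn and Pdgfra and the valve transcription factors Sox9, Scx and Nfatc1 were present in all 4 mice, Xist was listed at 0 and Ddx3y, Eif2s3y and Uty stood at 21.8 to 41.5, 11.8 to 20.2 and 3.75 to 7.25 TPM, as the male label requires. Cardiomyocyte, smooth muscle and blood genes were also present, at levels given below.

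The transcript pool was led by a small number of genes. Of all TPM, 50% was held by 257 genes, and 1446 genes had a mean of at least 100 TPM and 93 of at least 1000 TPM. The 50 most abundant genes held 27.8% of TPM in Ctrl 1, 35.7% in Ctrl 2, 35.6% in Ctrl 3 and 37.0% in Ctrl 4. Genes of the mitochondrial genome took 4.00%, 5.28%, 5.49% and 7.52% of counts in the same order, with 95% Wilson intervals no wider than 0.0132 percentage points that cover counting error only. Of TPM they took 12.3% to 22.3%. The highest was mt-Cytb, cytochrome b of respiratory complex III, at 44680 ± 9847 TPM (SD, n = 4). The cytochrome oxidase gene mt-Co2 stood at 1070 ± 132 TPM, and copies of mitochondrial sequence in the nuclear genome such as Gm28661, at 665 ± 153 TPM, carried counts as well, so the split of reads between mitochondrial genes and their copies is uncertain.

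Outside the mitochondrial genome, the first places went to globins. Hbb-bs, the adult beta globin (chr7:103475730-103482989, GRCm39, minus strand), had 12032 TPM in Ctrl 1, 25422 in Ctrl 2, 33145 in Ctrl 3 and 21851 in Ctrl 4. The alpha globins Hba-a1 and Hba-a2 had means of 14049 and 12691 TPM, and Hbb-bt had 4865. These genes are near-identical pairs that share reads, so their split is uncertain, and their sum ran from 26695 TPM in Ctrl 1 to 78551 in Ctrl 3. Globin transcripts were thus still present in each library after perfusion, at sums up to 2.94 times apart.

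Next came genes of every cell and genes of heart muscle. Tmsb4x, thymosin beta 4, which binds free actin, had 14009 TPM in Ctrl 1 and 6474 to 7248 in the other mice. The ferritin chains Fth1 and Ftl1, which store iron, were among the steadier of these genes, with 4951 ± 904 and 4307 ± 530 TPM. Among the 25 most abundant nuclear genes, Tcap, Cox6a2, Tnnc1, Tnni3, Slc25a4, Cox7a1, Mb and Myl3 belong to striated muscle, its contractile apparatus or its mitochondria. Tcap, the cap of titin at the Z-disc, had 5938, 14046, 8006 and 5656 TPM in Ctrl 1 to Ctrl 4. Cox6a2, the muscle form of a cytochrome oxidase subunit, had 3151, 10579, 6284 and 4548. Both were highest in Ctrl 2. Slc25a4, the ATP and ADP carrier of muscle mitochondria, and Mb, the oxygen store myoglobin, were lowest in Ctrl 1, with 2504 and 1709 TPM against at least 3055 and 2533 in the other mice.

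**Figure D1:**
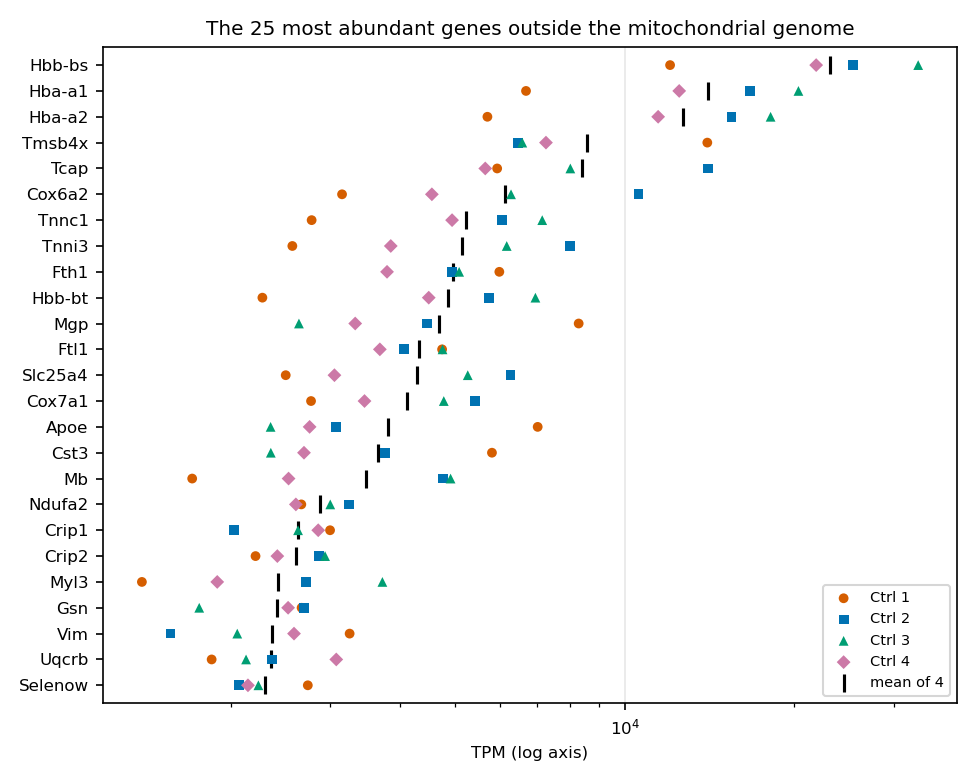
The 25 nuclear genes with the highest mean level, with TPM on a log axis, 1 point for each of the 4 mice and a vertical stroke for the mean. Hbb-bs leads at 12032 to 33145 TPM, and the muscle genes Tcap and Cox6a2 are highest in Ctrl 2 while Tmsb4x, Mgp and Apoe are highest in Ctrl 1.

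The rest of these 25 genes were of mixed kinds. Mgp, matrix Gla protein, a secreted inhibitor of calcification (chr6:136849433-136852821, minus strand), had 8283, 4465, 2643 and 3325 TPM, a mean of 4679 ± 2518. Apoe, the lipid carrier that macrophages and other cells secrete, had 7006 TPM in Ctrl 1 and 2354 to 3078 in the others. Cst3, the protease inhibitor cystatin C, had 3656 ± 1557 TPM. Gsn, the actin-severing protein gelsolin, and Vim, the mesenchymal filament vimentin, had 2415 ± 444 and 2365 ± 724. Crip1, Crip2, Ndufa2, Uqcrb and Selenow, at means of 2298 to 2880 TPM, completed the set, and the genes on either side of its lower edge were Selenow at 2298.24 and Cytl1 at 2297.76 TPM.

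Cytl1, cytokine-like 1, a small secreted protein known from cartilage (chr5:37892863-37897329, plus strand), was about as plentiful. It had 2573, 1814, 2264 and 2540 TPM, an SD on the log2 scale of 0.23, and did not differ between mice by more than 1.42 times. It made up 79.8% of the sum of the 15 cartilage genes. Of the others, Comp (275 ± 86.3 TPM) and Chad (118 ± 47.3), which bind collagen, Hapln1 (94.3 ± 53.3), which links proteoglycan to hyaluronan, and the transcription factor Sox9 (55.9 ± 21.1) were present in each mouse. The cartilage collagen Col2a1 had 11 counts over the 4 mice, with 0 in Ctrl 1 and Ctrl 3, and the proteoglycan core Acan had 8.34 TPM in Ctrl 1 and at most 0.834 in the other mice.

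The interstitial cell and fibroblast list, 15 genes, all had a mean of at least 1 TPM, and their sum was 9348 TPM in Ctrl 1, 6231 in Ctrl 2, 4880 in Ctrl 3 and 8226 in Ctrl 4. Gsn, Dcn and Lum led it. Dcn, decorin, a small proteoglycan on collagen fibrils, had 2453, 1082, 1281 and 2373 TPM, and Lum, lumican, of the same family, had 789, 353, 469 and 979. Both were higher in Ctrl 1 and Ctrl 4 than in Ctrl 2 and Ctrl 3. Pdgfra, the receptor that marks these cells, had 26, 21.6, 32.4 and 37.0 TPM and did not share that order. None of the 15 genes had an SD above 1, beside 617 (3.90%) of all 15836 genes with a mean of at least 1 TPM.

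The 15 endothelial genes had a different order of mice. Their sum was 1535, 1434, 2822 and 2335 TPM in Ctrl 1 to Ctrl 4, and 12 of the 15 were highest in Ctrl 3. Over all 15836 genes with a mean of at least 1 TPM, 6563, 2609, 3011 and 3653 were highest in Ctrl 1 to Ctrl 4. In the same order, 2308, 6275, 3265 and 3988 were lowest. Pecam1, the junction protein CD31, had 206, 196, 437 and 426 TPM. Esam (403 ± 120 TPM), Eng (294 ± 108) and Tie1 (210 ± 81.3), an adhesion molecule and a pair of receptors of the vessel lining, were likewise lower in Ctrl 1 and Ctrl 2 than in Ctrl 3 and Ctrl 4 in every case. Cdh5, the VE-cadherin that many use to mark these cells, had a mean of 47.1 TPM. Of the 6 lymphatic genes all reached 1 TPM, led by Ccl21a, a chemokine, with 184 TPM in Ctrl 2 and 29.6 to 60.1 in the others, whereas Prox1, the defining factor of lymphatic endothelium, had 5.46 to 12.6 TPM, Flt4 40.8 ± 20.7 and Lyve1 26.1 ± 14.2.

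All 18 valve transcription factors reached a mean of 1 TPM, with a sum of 1505 to 2077 TPM. Their median SD was 0.44, and 1 of them had an SD above 1, beside 617 of all 15836 genes. Klf2, which endothelial cells raise under laminar flow, was the highest at 795, 785, 1128 and 881 TPM and made up 49.0% of the list. Gata4 (155 ± 48.3 TPM), Klf4 (121 ± 29.1) and Msx1 (99.1 ± 37.4), which act in the endocardial cushions that form the valves, followed. Sox9 had 71.2, 49.5, 28.9 and 74.2 TPM, the tendon factor Scx 63.8 ± 26.3 and Twist1 61.0 ± 21.9. Nfatc1, the factor of valve endocardium, had 72.9 ± 21.8 TPM, and it was lowest in Ctrl 1 and highest in Ctrl 3.

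Matrix genes made up 2.21% ± 0.843 of TPM (SD, n = 4). Of the 145 listed, 132 had a mean of at least 1 TPM, and their sum was 34089, 18257, 14729 and 21485 TPM in Ctrl 1 to Ctrl 4. Of these 132 genes, 78 (59.1%) were highest in Ctrl 1 and 69 (52.3%) were lowest in Ctrl 3, beside 41.4% and 20.6% of all 15836 genes with a mean of at least 1 TPM. Each of the 9 matrix lists below was highest in Ctrl 1. The smooth muscle and macrophage sums given further on were highest in Ctrl 1 as well, and their part in the matrix levels was not tested.

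Adhesive and matricellular proteins, 21 genes, formed the largest class, with a mean sum of 8699 ± 4444 TPM, of which Mgp was 53.8%. Sparc, which binds collagen and calcium, had 1557, 1108, 519 and 790 TPM, and the early growth response protein Ccn1 had 503 ± 188. Fibronectin, Fn1, had 62.1 ± 22.1 and was highest in Ctrl 3. Ccn3, of the same family as Ccn1, had 1219 TPM in Ctrl 1 against 53.7, 16.0 and 24.3, and periostin, Postn, had 799, 193, 320 and 616. The tenascin Tnc was the lowest of the class at 1.59 TPM.

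Proteoglycans and the enzymes of hyaluronan, 18 genes, had a mean sum of 4587 ± 1758 TPM. Dcn led, followed by biglycan, Bgn, with 1318, 614, 404 and 599 TPM, and Lum. Prelp (630 ± 216 TPM), fibromodulin Fmod (262 ± 92.3) and lubricin Prg4, with 263, 117, 170 and 470, were also plentiful. Versican, Vcan, the large proteoglycan of the spongiosa, stood at 29.4, 12.9, 12.6 and 37.5 TPM. Of the 3 hyaluronan synthases, Has2 had a mean of 3.83 TPM, Has1 3.17 and Has3 1.02.

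Elastic fibre genes, 17 in number, had a mean sum of 2850 ± 1079 TPM. They were led by Ltbp4, which holds latent TGFβ in microfibrils and serves elastin assembly, with 802, 475, 681 and 680 TPM. Mfap4 had 1409 TPM in Ctrl 1 and 308 to 388 in the others, and Fbln1 had 403 ± 111. Elastin itself, Eln, had 211 TPM in Ctrl 1 and 79.2 to 91.4 in the others, a gap to the next mouse far wider than the range of those 3.

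Fibrillar collagens, 11 genes of which 8 reached 1 TPM, had a mean sum of 955 ± 373 TPM. Col3a1 had 535, 275, 174 and 270 TPM, Col1a1 384, 249, 160 and 352, and Col1a2 308, 147, 101 and 214. All 3 were highest in Ctrl 1 and lowest in Ctrl 3. Col11a2 was present at 26.1 ± 6.94 TPM although its partners Col2a1 and Col11a1 were under 1 TPM. The other interstitial collagens summed to 328 ± 106 TPM and were led by the beaded filament chains Col6a1 (141 ± 28.3) and Col6a2 (57.0 ± 21.9) and by Col8a2 (29.6 ± 8.37).

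Basement membrane genes, 23 in number, summed to 954 ± 359 TPM. Lamb2, the laminin beta 2 chain, had 344, 224, 334 and 271 TPM. Col18a1, which carries endostatin, had 449 TPM in Ctrl 1 and 59.4, 29.7 and 18.1 in the others, and without it the lead went to Lamb2 and Col4a1 (138 ± 44.2). The collagen enzymes, 18 genes that all reached 1 TPM, summed to 1575 ± 327 TPM, with P4hb (497 ± 82.9) and the collagen chaperone Serpinh1 (294 ± 92.3) ahead of Pcolce (184 ± 69.2). Lox, the crosslinking enzyme, had 26.1 TPM in Ctrl 1 and 4.48 to 6.82 in the others.

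Proteases were lower than their inhibitors. The 17 protease genes summed to 745 ± 249 TPM, with gelatinase Mmp2 at 224, 130, 149 and 261, Mmp23 at 184 ± 112, and stromelysin Mmp3 at 117 ± 80.2. The 8 inhibitor genes summed to 1448 ± 289 TPM. Timp2 had 1021, 755, 674 and 847 TPM, Timp3 384, 384, 311 and 638, and Timp1 104 ± 39.1. In each of the 4 mice the inhibitor sum was above the protease sum, by 1.56 to 2.32 times. Of bone genes, Spp1 had 19.6 ± 13.1 TPM and Alpl 8.33 ± 6.08, while Runx2, the master factor of osteoblasts, was at 0.173 to 0.383 TPM.

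Genes of cell types that lie next to the leaflet were counted at levels that differed from mouse to mouse. The 14 genes shared by all cardiomyocytes summed to 9533, 30001, 24924 and 15003 TPM, and all 14 were lowest in Ctrl 1, beside 2308 of all 15836 genes. Tnnc1 and Tnni3, troponin subunits, had means of 5229 ± 1861 and 5150 ± 2420 TPM. The alpha myosin Myh6 had 141, 1501, 474 and 220 TPM. The giant proteins Ttn and Ryr2 had means of 7.72 and 7.54 TPM. Over 22 cardiomyocyte genes with a mean of at least 1 TPM, Spearman's rho between level and exonic length was -0.64, a description over genes of the same 4 libraries, and its cause was not tested. The 4 ventricular genes were lowest in Ctrl 1 like the shared ones, but their sum was highest in Ctrl 3, at 6756 TPM against 5247 in Ctrl 2. Myl2 had 1602, 2514, 3027 and 1880 TPM and Myl3 1391, 2720, 3716 and 1893, both highest in Ctrl 3, while Myh7 had 5.59 ± 3.57 and Irx4 3.76 ± 1.85.

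Fat cell genes were counted too. Brown fat markers that heart muscle lacks, among them Ucp1, the heat-producing uncoupling protein, with 201, 81.7, 189 and 98.9 TPM, and Cidea with 96.0, 79.3, 77.3 and 34.1, were found in each mouse. The list's sum of 5316 ± 1410 TPM came mostly from Cox7a1 (77.2%) and Cox8b, which heart muscle also expresses, and without these and Ppargc1a it was 232 ± 82.4. Fabp4, a fatty acid binding protein of adipocytes and capillaries, had 585 ± 91.6 TPM, Lpl 190 ± 82.0, the adipokine Cfd 186 ± 132 and Adipoq 32.1, 19.5, 16.5 and 17.7. Mesothelial genes were highest in Ctrl 2 for 8 of 9, beside 2609 of all 15836 genes. Among them were Upk3b at 107, 228, 124 and 93.7 TPM, Msln at 52.5, 167, 69 and 39, and the keratins Krt18 (92.0 ± 60.5) and Krt19 (90.3 ± 68.6). Of the 9 pericyte genes 2 had an SD above 1, beside 617 of all 15836 genes. The list was led by Rgs5 (69.2 ± 19.5), Ndufa4l2 (57.3 ± 21) and Pdgfrb (53.8 ± 22.5).

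Among leukocytes, macrophages led. Their 14 genes summed to 2956, 1804, 1113 and 702 TPM, and 13 of the 14 were highest in Ctrl 1, beside 6563 of all 15836 genes. Lyz2, lysozyme, had 1125, 748, 456 and 280 TPM, and the complement genes C1qa (328 ± 221), C1qc (218 ± 132) and C1qb (144 ± 95.7) took the same order of mice. Adgre1, which codes for F4/80, had 41.6, 19.5, 12.1 and 14.3. The mast cell proteases Cma1 (30.8 ± 12.5 TPM), Mcpt4 (19.6 ± 8.18) and Tpsb2 (14.4 ± 6.32) were present in each mouse, with Kit at 2.56 ± 0.919. Of B cell genes Ighm had 104 ± 34.6 TPM and Cd79a 5.66 ± 3.53, Cd79b 6.43 ± 3.15. Of T cell genes, Cd3e was at 0.123 to 1.21 TPM, Cd2 at 6.30 ± 2.66, Lck at 4.52 ± 2.59 and Trac at 27.4 TPM in Ctrl 2 against 4.73 to 6.92. Also counted, in TPM, were genes of neutrophils (S100a8 13.8 ± 6.75, S100a9 13.0 ± 9.07, Retnlg 1.70 ± 1.13), of NK cells (Nkg7 7.40 ± 4.16, Klrd1 2.19 ± 3.51, Prf1 1.01 ± 1.24 and Ncr1 0.392 ± 0.350) and of dendritic cells (Zbtb46 10.9 ± 3.84, Cd209a 7.81 ± 8.08, Clec9a 3.36 ± 0.960 and Flt3 0.903 ± 1.42).

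Division genes were low, with Mki67 at 3.74, 3.17, 2.08 and 1.75 TPM, Birc5 at 5.78 ± 1.88, Cdk1 at 3.27 ± 1.08 and Aurkb at 3.14 ± 1.28. Of nerve, Schwann cell genes such as S100b (143, 49.4, 44.5 and 70.8 TPM), Mbp (6.98 ± 3.49), Sox10 (3.76 ± 3.92) and Cdh19 (3.54 ± 1.30) were present. The neuronal genes Tubb3 (29.6 ± 5.32), Stmn2 (28.3 ± 10.6) and Dbh (4.50 ± 3.42) were counted, while Snap25 and Chat were listed at 0 in all 4 mice.

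**Figure D2:**
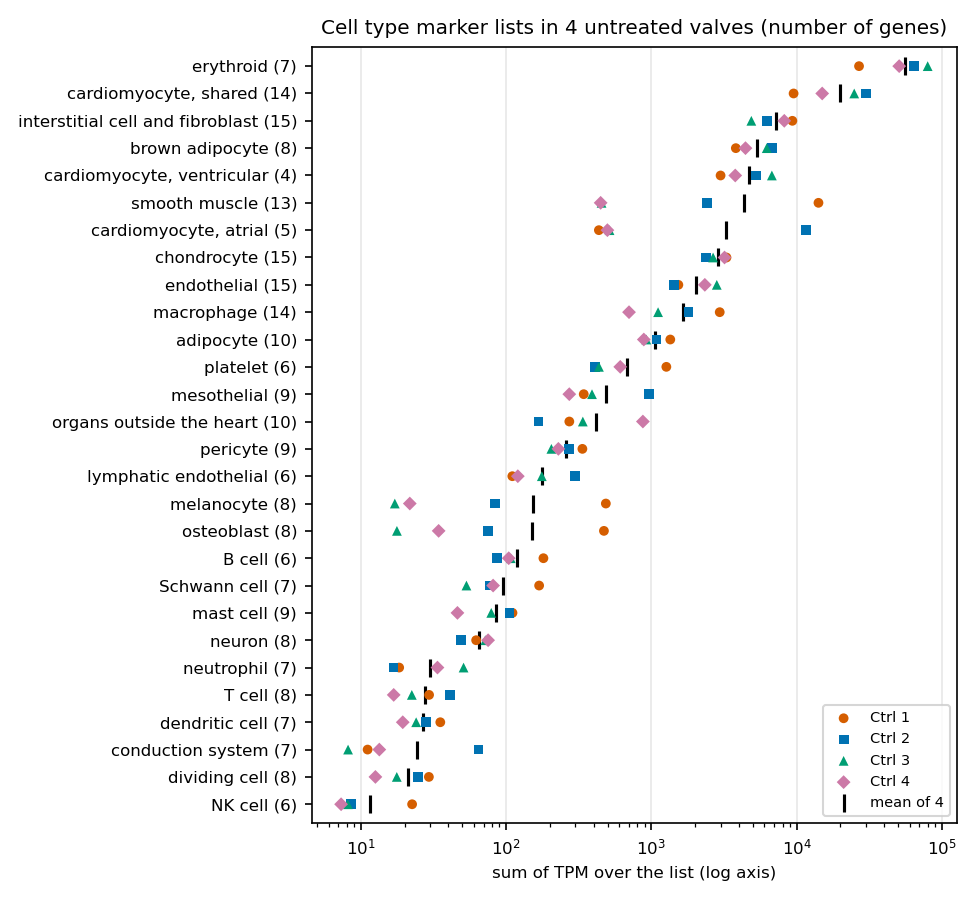
The sum of TPM over each cell type list, on a log axis, 1 point for each of the 4 mice and a stroke for the mean, with the number of listed genes in brackets. The erythroid and shared cardiomyocyte lists are highest, and the widest ranges between mice are those of smooth muscle, melanocyte, osteoblast (through Sost) and atrial genes.

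The spread between mice was under 1 log2 unit for most genes. The median SD of log2(TPM + 1) was 0.32 over 15836 genes, and 76.0% of genes were under 0.5. Counting error alone would give a median SD of 0.0558 over 1584 of these genes, far under the observed value. The biological coefficient of variation in edgeR, the relative SD of a gene's level between libraries beyond counting error, was 0.504. Pearson's r between pairs of mice over log2(TPM + 1) was 0.935 to 0.964 across genes, highest for Ctrl 3 and Ctrl 4. From pair to pair, 6.61% to 13.9% of genes were more than 2-fold apart on the scale of TPM + 1. No pair agreed within counting error. In a principal component analysis of the 4 libraries the components held 44.3%, 38.1% and 17.7% of the variance. Spearman's rho between a gene's deviation and its GC content was 0.04, 0.15, 0.20 and -0.35 in Ctrl 1 to Ctrl 4, and a loess correction for GC content gave a median SD of 0.29.

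Among 1343 protein-coding genes with a mean of at least 100 TPM, the 10 with the smallest SD included Cops7a, Eif1, Uqcc3, Chchd2, Ppp1r11, Tspyl1, Zfp706, Trappc1 and Vti1b, all with an SD of 0.05 to 0.07. Cops7a, a subunit of the COP9 signalosome, had 109, 107, 116 and 112 TPM. Eif1, which selects the start codon, had 1752, 1752, 1817 and 1666. The 85 cytosolic ribosomal protein genes were less even, with a sum of 24548 to 34560 TPM. Of the 84 that reached 1 TPM, 78 were highest in Ctrl 1, beside 6563 of all 15836 genes.

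At the other end, 617 genes (3.90%) had an SD above 1. Of these, 306 were highest in Ctrl 1, 185 in Ctrl 2, 43 in Ctrl 3 and 83 in Ctrl 4. Of all 15836 genes, 6563, 2609, 3011 and 3653 were highest in the same order of mice. Ctrl 1 and Ctrl 2 thus had larger shares of the 617 genes than of all genes, and the excess was greater for Ctrl 2. Ctrl 3 and Ctrl 4 had smaller shares. Genes that stood more than 4-fold above the next mouse, on the scale of TPM + 1, numbered 85 in Ctrl 1, 64 in Ctrl 2, 9 in Ctrl 3 and 15 in Ctrl 4. The share of genes with an SD above 1 was 6.63% at means of 1 to 3 TPM and 3.04% at means of at least 100 TPM. Of the 617 genes, 74 belonged to at least 1 of the gene lists. The share of listed genes among all 15836 was not counted, so this number has no reading of its own.

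**Figure D3:**
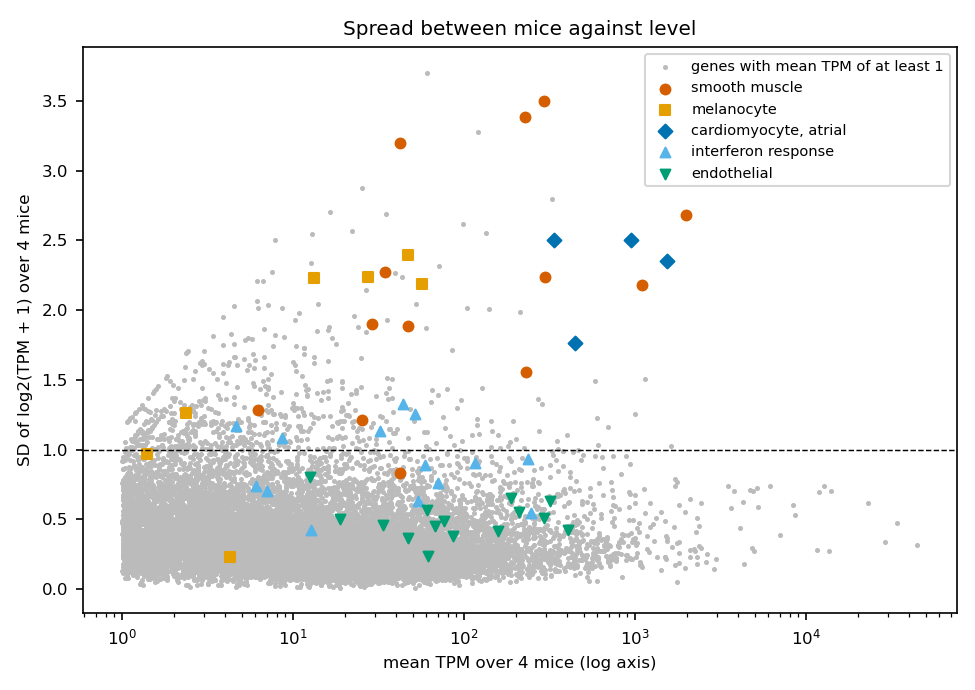
The SD of log2(TPM + 1) over the 4 mice against mean TPM on a log axis, 1 grey point for each of 15836 genes, with 5 gene lists in colour and a dashed line at an SD of 1. Of 13 smooth muscle genes, 12 lie above the line, while none of 15 endothelial genes does, beside 617 (3.90%) of all 15836 genes.

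Ctrl 1 stood apart in smooth muscle. All 13 smooth muscle genes were highest in Ctrl 1, beside 6563 of all 15836 genes. Their sum was 14141, 2426, 454 and 448 TPM in Ctrl 1 to Ctrl 4. Without Ctrl 1 the mean sum was 1109 TPM, against 4367 with it. Acta2, smooth muscle alpha actin (chr19:34217737-34232990, minus strand), had 6877, 809, 118 and 162 TPM. Myh11, the smooth muscle myosin and the most specific of these genes, had 801, 92.7, 8.62 and 3.47. Cnn1, calponin, had 1050, 109, 6.54 and 5.51, and Myl9, the regulatory light chain, 3234, 889, 158 and 133. Ctrl 2 was the next highest for all 4 genes, and in Ctrl 3 and Ctrl 4 Myh11 was at single digits. Tpm2 (298 ± 426 TPM), Actg2 (144, 21.8, 0.825 and 0.363) and Lmod1 (113, 18.2, 4.53 and 2.29) took the same order of mice as Myh11. Tagln overlaps Pcsk7, so its level of 47.2 ± 62.0 TPM is uncertain, and actins share reads with each other.

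Other genes of Ctrl 1 were not on that list. Susd5, a membrane protein with a hyaluronan-binding link domain (chr9:113886208-113927798, plus strand), had the largest SD of all genes, 3.70, with 222, 20.5, 0.147 and 0.0972 TPM. Sost, sclerostin, a Wnt inhibitor of bone and of the aortic wall, had 453, 24.3, 4.30 and 1.77 TPM, an SD of 3.28. Ccn3 had an SD of 2.80. Itga8, an integrin chain of smooth muscle, had 249, 12.9, 5.17 and 16.6, and the noncoding RNA E030013I19Rik, which overlaps it, 126, 11.2, 1.05 and 2.05. Kcnmb1, the beta subunit of the calcium-activated potassium channel of smooth muscle, had 78.1, 8.51, 0.821 and 0.880. The counts at Mir143 and Mir145a, 26.8 and 42.5 TPM in Ctrl 1, lie on loci under 200 bases and are uncertain. Npnt, a ligand of Itga8, had 265, 25.6, 18.5 and 31.8 TPM, Nox4, an oxidase, 55.5 against at most 4.79, and Itih4, a hyaluronan-associated secreted protein, 175, 16.7, 11.2 and 6.04, and these last 3 were chosen after their values were seen.

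Pigment cell genes had the same top mouse. The 8 melanocyte genes summed to 486, 83.8, 17.1 and 21.7 TPM. All 8 were highest in Ctrl 1, beside 6563 of all 15836 genes with a mean of at least 1 TPM. For 7 of the 8, Ctrl 1 was at least 3.61 times the next mouse. Dct, dopachrome tautomerase of the melanin pathway, had 190, 22.1, 5.11 and 9.15 TPM. Mlana, a melanosome protein, had 140, 38.9, 4.55 and 3.35, Pmel 90.1, 14.0, 2.29 and 2.67, and Tyrp1 47.0, 3.60, 0.296 and 2.06. Mitf, the factor that drives these genes in pigment cells and is used by other cells as well, was the exception in size, with 5.44, 4.17, 4.15 and 3.35 TPM.

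Since these genes were highest in the same mouse while Mitf was nearly level, the 250 bases before the start of Dct, Tyr and Tyrp1 are shown (RefSeq windows, GRCm38.p6). Capitals mark the heptamer TCATGTG or its reverse CACATGA, the core of the M-box that Mitf binds. The windows are Dct chr14:118052247-118052496, minus strand, Tyr chr7:87493513-87493762, minus strand, and Tyrp1 chr4:80833963-80834212, plus strand.
Dct: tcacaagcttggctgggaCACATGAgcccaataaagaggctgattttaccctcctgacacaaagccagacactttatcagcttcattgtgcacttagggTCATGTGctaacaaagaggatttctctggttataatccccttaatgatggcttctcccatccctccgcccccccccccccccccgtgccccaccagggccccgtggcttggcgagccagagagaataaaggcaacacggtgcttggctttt
Tyr: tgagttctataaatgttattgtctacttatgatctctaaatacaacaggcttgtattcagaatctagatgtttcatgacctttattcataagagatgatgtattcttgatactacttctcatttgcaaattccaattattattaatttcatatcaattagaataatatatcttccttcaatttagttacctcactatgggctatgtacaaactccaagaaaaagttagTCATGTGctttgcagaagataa
Tyrp1: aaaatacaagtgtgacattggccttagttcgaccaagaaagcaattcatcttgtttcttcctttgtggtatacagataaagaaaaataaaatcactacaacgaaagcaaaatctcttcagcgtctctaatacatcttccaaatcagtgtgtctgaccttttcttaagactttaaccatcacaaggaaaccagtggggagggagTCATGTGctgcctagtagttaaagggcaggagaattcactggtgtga
The heptamer occurred 2 times in Dct and 1 time in each of the other windows. Of 8 melanocyte genes 5 had a window, and Mitf and Oca2 held no match. In all, 3.25% of 32851 windows held it. The heptamer was chosen after the levels were seen, and a match is not evidence of binding.

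Blood cells also differed between mice. Platelet genes, 6 in all, were highest in Ctrl 1, beside 6563 of all 15836 genes. Among them were Ppbp at 517, 131, 174 and 298 TPM, Pf4 at 400, 211, 178 and 211, and Gp9 at 230, 54.3, 66.4 and 68.2. The megakaryocyte genes Itga2b (97.9, 9.57, 9.88 and 23.4 TPM) and Tubb1 (174, 17.1, 25.8 and 41.0) went with them, from a list chosen after the values were seen. All 7 red cell genes were highest in Ctrl 3 and lowest in Ctrl 1, beside 3011 and 2308 of all 15836 genes. Alas2, the erythroid enzyme of haem synthesis, had 192, 854, 1229 and 515 TPM. Platelet and red cell genes thus had different orders of mice.

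Ctrl 2 stood apart in atrial muscle. The sum of the 5 atrial genes was 435, 11549, 515 and 498 TPM. Myl7, the atrial regulatory light chain (chr11:5845449-5848792, minus strand), had 198, 5477, 204 and 228 TPM. Sln, sarcolipin, which slows the calcium pump of atrial muscle, had 105, 3444, 109 and 104, Myl4, the atrial essential light chain, 37.2, 1229, 34.3 and 41.1, and Nppa, the atrial natriuretic peptide, 95, 1399, 167 and 125. For these 4 genes the other 3 mice were within 1.76 times of each other. Bmp10, a growth factor of the right atrial appendage, was at most 0.558 TPM in each mouse, and it was listed at 0 in Ctrl 2. Mybphl and Hamp had the same pattern, at 496 and 366 TPM in Ctrl 2 and at most 14.1 and 12.0 in the others. So did Aldh1b1, at 140 TPM in Ctrl 2 and at most 9.08 in the other mice.

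The conduction system list was low and partly followed. Cntn2, a marker of Purkinje fibres, had 31.2 TPM in Ctrl 2 and 0.643 to 1.34 in the others, and Cacna2d2, a calcium channel subunit, 13.2 against at most 0.354. The pacemaker channel Hcn4 had 0.324, 1.54, 0.524 and 0.444 TPM, Cacna1g 5.59 ± 2.94 and Tbx3, the factor of the nodes, 2.48, 5.58, 2.21 and 3.44. Isl1, of the sinus node, was not highest in Ctrl 2. Of genes chosen after their values were seen, Myl1 (708 TPM in Ctrl 2 against 35.8 to 51.8), Tbx5 (35.7 against at most 5.82) and Chrm2, the muscarinic receptor (28.3 against at most 5.77), had the atrial pattern. Further genes of Ctrl 2 with a large SD were Alox8, a lipoxygenase, at 49.8 TPM against at most 0.739, and Avp, the neuropeptide vasopressin, at 31.2 TPM, listed at 0 in the other 3 mice.

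Antiviral genes were highest in Ctrl 2 as well, for 12 of 14, beside 2609 of all 15836 genes. The sum of the 14 was 787, 1798, 594 and 613 TPM. Ifit1, which binds foreign RNA, had 23, 136, 22.2 and 24.2 TPM, Isg15, a ubiquitin-like modifier, 166, 516, 132 and 135, Ifit3 84.1, 246, 60.2 and 72, and Irf7, the factor that amplifies the response, 52.4, 137, 52.1 and 41.0. The chemokine Cxcl10 had 97.1 TPM in Ctrl 2, 2.16 in Ctrl 1, 1.99 in Ctrl 4 and was listed at 0 in Ctrl 3. Rsad2, with 20.2, 74.6, 77.0 and 63.5 TPM, and Bst2, with 329, 316, 160 and 174, were the 2 exceptions.

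To show a sequence found before some of these genes, the 250 bases before the start of Ifit1, Ifit3 and Isg15 are given from the same RefSeq build. Capitals mark TTTC, any 2 bases and TTTC again, or the reverse GAAA, any 2 bases and GAAA. This is the core of the interferon-stimulated response element. The windows are Ifit1 chr19:34640639-34640888, plus strand, Ifit3 chr19:34583279-34583528, plus strand, and Isg15 chr4:156200819-156201068, minus strand.
Ifit1: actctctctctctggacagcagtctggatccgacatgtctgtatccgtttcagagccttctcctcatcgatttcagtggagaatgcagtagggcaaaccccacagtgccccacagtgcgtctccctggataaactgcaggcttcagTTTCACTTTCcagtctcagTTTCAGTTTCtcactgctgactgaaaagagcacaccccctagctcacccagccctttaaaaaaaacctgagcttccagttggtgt
Ifit3: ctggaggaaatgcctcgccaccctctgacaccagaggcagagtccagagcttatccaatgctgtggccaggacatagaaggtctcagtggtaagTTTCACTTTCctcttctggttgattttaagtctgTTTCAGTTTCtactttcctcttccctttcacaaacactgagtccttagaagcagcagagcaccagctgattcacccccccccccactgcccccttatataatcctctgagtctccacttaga
Isg15: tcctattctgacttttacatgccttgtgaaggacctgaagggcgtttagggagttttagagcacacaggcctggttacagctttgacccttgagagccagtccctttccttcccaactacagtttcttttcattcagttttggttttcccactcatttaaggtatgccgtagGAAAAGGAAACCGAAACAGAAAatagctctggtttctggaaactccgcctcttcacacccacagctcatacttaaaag
The 3 matches in Isg15 overlap. Of the 14 genes 10 had a window and 6 of these held the element, namely Ifit1, Ifit3, Isg15, Oas1a, Rsad2 and Bst2, against 2.98% of all 32851 windows. Ifit2, Irf7, Oasl2 and Ifi44 had a window and held no match. Rsad2 and Bst2 held the element and were not highest in Ctrl 2. The element too was chosen after the levels were seen.

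Ctrl 3 had few genes of its own. Acta1, skeletal alpha actin, which stressed heart muscle also makes, had 657 TPM against 106, 170 and 163, and was named after its value was seen. The predicted gene Gm50471, with 64.1 TPM against at most 1.09, has 324 bases of exon and overlaps other predicted genes, so its level is uncertain. Slc4a1, the anion exchanger of red cells, had 2.93, 8.96, 30.7 and 10.1 TPM.

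Ctrl 4 was highest for secretions of the airway. Scgb1a1, uteroglobin of club cells, had 260, 136, 333 and 869 TPM, so that it was present in every mouse. It was the only member of the list of organs outside the heart above 11 TPM on average, since the keratin Krt14 had 10.1 ± 12.0, surfactant Sftpc 1.41 ± 2.63 and albumin, Alb, 0.586 ± 0.135. In an airway list chosen after the values were seen, 7 of the 8 genes that reached 1 TPM were highest in Ctrl 4, beside 3653 of all 15836 genes. Among the 7 were Bpifa1 (61.9, 37.3, 72.5 and 219 TPM), Scgb3a2 (20.1, 17.3, 23.4 and 101) and Scgb3a1 (7.40, 6.13, 12.2 and 51.3). Foxj1, the factor of ciliated cells, had a mean of 0.121 TPM. A plasma cell and immunoglobulin list, also chosen after the values were seen, summed to 251, 76.1, 96.5 and 268 TPM in Ctrl 1 to Ctrl 4. Of its 7 genes that reached 1 TPM, 3 were highest in Ctrl 4, beside 3653 of all 15836 genes. Igkc had 153, 38.6, 57.2 and 196 TPM and Jchain 7.25, 0.521, 0.907 and 9.98.

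**Figure D4:**
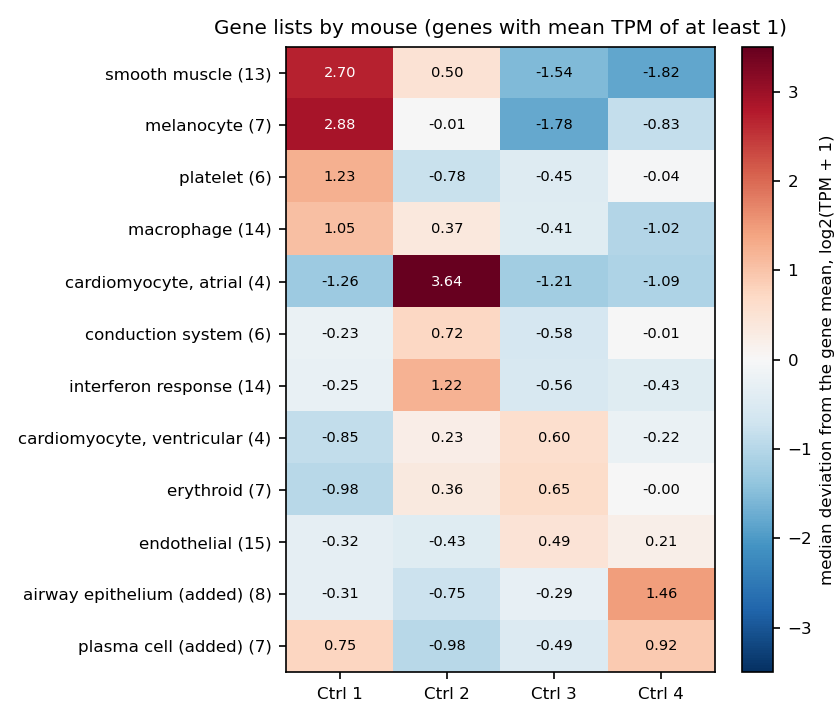
For 12 gene lists (rows, number of genes with a mean of at least 1 TPM in brackets) and the 4 mice (columns), the median over genes of the deviation from the gene's own mean on the log2(TPM + 1) scale, red above and blue below. Ctrl 1 is at 2.70 for smooth muscle and 2.88 for melanocyte genes, Ctrl 2 at 3.64 for atrial genes and 1.22 for interferon genes, and Ctrl 4 at 1.46 for airway genes.

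Serotonin and angiotensin genes, the subject of the study, were mostly low at baseline. Serotonin acts through the Htr receptors, is taken up by the transporter SERT, the product of Slc6a4, and is broken down by the monoamine oxidases. Of 23 serotonin genes 8 had a mean of at least 1 TPM and 9 were listed at 0 in all 4 mice, namely Htr1a, Htr1d, Htr1f, Htr2c, Htr3a, Htr3b, Htr4, Htr5a and Htr5b. At these depths a count of 0 allows up to 3 counts, or 0.0754 to 0.114 TPM for a gene of 2000 bases, with each count taken singly. If both mates of a pair were counted, the bound is higher, and it was not computed.

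Htr2b (chr1:86026748-86039736, minus strand, overlapping Psmd1) had 19, 62, 34 and 48 counts, or 0.575, 1.52, 1.16 and 1.08 TPM. Its mean of 1.08 ± 0.388 TPM was next to the threshold for detection. Because of the overlap with Psmd1 and an unknown strand setting, the level of Htr2b is uncertain. Htr2a, the related receptor, was higher in each mouse, with 4.10, 1.85, 4.44 and 8.01 TPM, a ranking that carries the same uncertainty. Htr1b had 9.81 TPM in Ctrl 1, at most 0.484 in Ctrl 2 and Ctrl 4, and 0 counts in Ctrl 3. Htr7 and Htr6 had means of 0.107 and 0.106 TPM.

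Slc6a4 (chr11:76888903-76923169, plus strand) had 374, 80, 83 and 154 counts, or 4.77, 0.825, 1.19 and 1.46 TPM, so Ctrl 1 lay above the other 3 mice, which were within 1.77 times of each other. Platelets carry this transporter, and the platelet genes above were highest in Ctrl 1 too, and whether the counts came from them was not tested. The breakdown enzymes were the most abundant of the system, with Maob at 108, 79.9, 44.8 and 80.3 TPM and Maoa at 20.8, 12.8, 13.8 and 23.3. The vesicle transporter Slc18a2 had 10.7 ± 3.42 TPM, and the low-affinity transporter Slc22a3 1.71 ± 0.870. The synthesis genes were under 1 TPM, with Ddc at 0.791, Tph1 at 0.309 and Tph2 at 0.0316, and so was Slc18a1 at 0.0673.

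Of 12 genes of the renin-angiotensin system 7 had a mean of at least 1 TPM. Agtr1a, the main receptor of angiotensin II in mice (chr13:30518942-30566850, plus strand), had 3.30, 5.64, 5.88 and 3.40 TPM, while Agtr1b was listed at 0 and Agtr2 and Mas1 had means of 0.0434 and 0.126. Ace, the converting enzyme of the endothelial surface, had 109, 63.7, 62.8 and 93.1 TPM, and Atp6ap2, the prorenin receptor and a proton pump accessory, 112, 57.0, 78.3 and 139. The peptidases Lnpep (13.2 ± 3.34), Enpep (5.39 ± 1.74) and Mme (1.82 ± 0.734) were lower. The substrate gene Agt had 6.68 TPM in Ctrl 2 and 0.618 to 1.06 in the others, and Ren1 had a mean of 0.413.

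Genes of cell state had median SDs of 0.36 for 17 immediate early genes, 0.24 for 11 heat shock genes, 0.40 for 14 clock genes, 0.31 for 13 hypoxia and glycolysis genes and 0.90 for the 14 interferon genes above, beside 0.32 for all genes. Fos, induced within minutes of a stimulus, had 82.7, 88.5, 66.6 and 83.6 TPM, and Ier2 (415 ± 83.7), Jun (297 ± 44.8) and Dusp1 (283 ± 77.1) were higher. The small chaperone Hspb1 had 1021 ± 228 TPM, Hsp90ab1 714 ± 82.9, Hspa8 378 ± 98.7 and the inducible Hspa1a 32.3, 21.8, 15.0 and 21.2. Glycolysis was led by Aldoa (1220 ± 367), Ldha (569 ± 97.2) and Pgk1 (188 ± 39.9), with the growth factor Vegfa at 68.2 ± 8.51.

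The clock genes showed 1 arrangement in all 4 mice. Nr1d1, the repressor REV-ERBα, had 332, 179, 152 and 238 TPM, Dbp 298, 180, 137 and 198 and Tef 119 ± 11.7, while Bmal1, whose transcript peaks at the opposite phase, had 1.44, 1.44, 1.84 and 2.34 and Per2 32.8 ± 1.29. In each mouse Nr1d1 was above Bmal1 by at least 82.5 times. Of RNAs that lack a poly(A) tail, Rmrp and Rpph1 were listed at 0, and Rn7s1 (54.7 ± 8.76 TPM), Rn7s2 (22 ± 2.53) and Rn7sk (6.27 ± 2.18) were low.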

How the data were processed

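RNA sequencing of aortic valves was analysed in the 4 Ctrl mice only, each its own library. Per the labels and the study's methods, the authors checked reads with FastQC 0.12.1, trimmed them, aligned them to GRCm39 with HISAT2 and counted reads per gene with featureCounts. The versions of the latter, the annotation, the strand setting and the library kit are not given in the sources used here. The table is named as normalized, but the deposited values are raw counts, whole numbers with unequal totals of 45656578 to 69355531 per mouse. Among genes with 1 to 10 counts, even counts (2701 to 3138 genes) outnumbered odd ones (1809 to 2036) in each library, the pattern that counting both mates would give. The counting SD therefore took 2 counts as 1 fragment, while the floor for a count of 0 took each count singly. The counts were made from reads without molecular identifiers, so intervals cover counting error only.

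TPM was computed from the counts with the union of exons in GENCODE release vM39. Genes without a match, 618 of 56941 with 0.0314% to 0.0449% of counts, were left out. Spread was the SD of log2(TPM + 1) at a mean of at least 1 TPM. Dispersion was estimated in edgeR 4.0.16 (R 4.3.3) with TMM factors over genes whose counts averaged 10 or more. On simulated counts of the 4 libraries, 56323 genes were run and 200 of them were given a true SD of 1.5. An estimate above 1 was found for 66.3% of genes given that SD, against 0.083% of the others. Neither share was taken over all genes run. No groups were compared and no p-value is given. Mice that stood apart from the other 3 were marked by Dixon's 95% critical value, on values without logs.

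Named genes were the 25 highest by mean TPM outside the mitochondrial genome, the leading members of each list (its defining gene and the 3 highest), the 25 with the largest SD, the 10 with the smallest SD among protein-coding genes with a mean of at least 100 TPM, and all serotonin and renin-angiotensin genes. A few genes that met this rule are not reported here. Others were picked for their role in a list, and those picked by their values are named as such. The lists and genes were chosen with earlier results of these data known. Alternatives were other gene lengths, totals without mitochondrial genes, TMM and DESeq2 1.42.0 scaling, other pseudocounts and filters, a loess correction for GC content with a span of 0.3, and leaving out each mouse. Promoter windows came from RefSeq on GRCm38.p6, a build other than that of the counts, and were matched by symbol.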

Additional observations from a re-analysis of the deposited data

Results flagged for a closer look

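A mouse was set apart from the other 3 where its gap to the nearest of them, divided by the whole range, was above Dixon's 95% critical value for 4 values. This ratio of gap to range was taken on values without logs, unlike the SD above, and was not computed on the log2 scale. For normally distributed values, chance alone would set a mouse apart in about 1 in 20 such groups of 4. Whether TPM is so distributed was not tested. Over 365 measures taken from the text (genes, list sums and library totals), 86 were set apart, 75 of them genes, but many of these genes were named for their spread, so the share has no reading of its own. Of the genes, 39 had Ctrl 1 above the rest, 28 had Ctrl 2, 5 had Ctrl 4 and 2 had Ctrl 3. The ratio of gap to range follows each name.

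Of list sums, Ctrl 1 was above the rest for smooth muscle (0.855), melanocyte (0.858), megakaryocyte (0.883), osteoblast (0.873), basement membrane (0.853) and NK cell (0.918), and Ctrl 2 for atrial cardiomyocyte (0.993), the added atrial and conduction genes (0.987), conduction system (0.907) and interferon response (0.839). For smooth muscle, Ctrl 2 was itself above Ctrl 3 and Ctrl 4, with 2426 TPM against 454 and 448. The same held for melanocyte genes, with 83.8 TPM against 17.1 and 21.7. The osteoblast sum was set by Sost, and the NK cell sum of 22.5 TPM in Ctrl 1 by Nkg7 and Klrd1. The share of TPM in the 50 most abundant genes was lower in Ctrl 1 than in the others (0.841).

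Ctrl 1 was above the rest for smooth muscle genes and their companions Acta2 (0.898), Myh11 (0.888), Cnn1 (0.901), Actg2 (0.851), Lmod1 (0.857), Susd5 (0.908), Sost (0.95), Itga8 (0.953), E030013I19Rik (0.918), Kcnmb1 (0.9), Mir143 (0.881), Mir145a (0.848), Npnt (0.946), Nox4 (0.956) and Itih4 (0.937). The same held for the pigment genes Dct (0.908), Pmel (0.867), Tyrp1 (0.929), Tyr (0.924) and Oca2 (0.9) and for the platelet and megakaryocyte genes Pf4 (0.85), Gp9 (0.921), Itga2b (0.843) and Tubb1 (0.848). Among matrix genes it held for Ccn3 (0.969), Mfap4 (0.928), Eln (0.908), Col18a1 (0.904), Col4a1 (0.918), Lox (0.892) and Acan (0.9). The others were Tmsb4x (0.897), Apoe (0.844), Cd79a (0.883), Klrd1 (0.94), Flt3 (0.904), Sftpc (0.961), Slc6a4 (0.839) and Htr1b (0.951). 

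Ctrl 2 was above the rest for atrial and conduction genes and those with the same pattern, Myl7 (0.994), Sln (0.998), Myl4 (0.994), Nppa (0.944), Mybphl (0.998), Hamp (0.986), Aldh1b1 (0.957), Cntn2 (0.977), Cacna2d2 (0.977), Hcn4 (0.835), Myl1 (0.976), Tbx5 (0.925) and Chrm2 (0.852). It also was for the interferon genes Ifit1 (0.982), Isg15 (0.912), Ifit3 (0.872), Irf7 (0.882), Oas1a (0.848) and Cxcl10 (0.978). The others were Krt19 (0.886), Trac (0.903), Alox8 (0.99), Avp (1), Krt14 (0.916), Slc22a3 (0.938), Agtr2 (0.908), Agt (0.926) and Ren1 (1), of which Agtr2 and Ren1 had means of 0.0434 and 0.413 TPM. Ctrl 2 was below the rest for Rn7s2 (0.933). Ctrl 3 was above the rest for Acta1 (0.884) and Gm50471 (0.986). Ctrl 4 was for Uty (0.873), Col2a1 (0.891), Scgb3a2 (0.928), Scgb3a1 (0.865) and Foxj1 (0.879), of which Col2a1 had 10 counts in Ctrl 4. How much smooth muscle or atrial muscle was taken with each valve was not tested.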

How the results depend on the processing

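Of 95 values of the 10 main results under another setting, 79 stayed within a set limit. The limit was the SD between mice for shares and sums, and 1.5 times for a count of genes. For the median SD and the biological coefficient of variation it was the SD of the values with 1 mouse left out. Of the 95, 40 left out 1 mouse, and 36 of these stayed within the limit. A mean of 4 mice cannot move by as much as the SD in this way, so shares and sums could not fail there. The 50 most abundant genes held 34.0% of TPM on average, 27.2% with the median transcript as the length and 23.4% with totals that leave out mitochondrial genes. The median SD of 0.32 was 0.37 with a pseudocount of 0.1, 0.17 with a pseudocount of 10, 0.28 at a minimum mean of 10 TPM, 0.020 with no filter and 0.29 after a loess correction for GC content. Genes with an SD above 1, 617 in number, were 1430 with a pseudocount of 0.1, 89 with a pseudocount of 10 and 227 at a minimum mean of 10 TPM, so this count holds for its scale only. The biological coefficient of variation was 0.504, and 0.632 with no filter on low counts. The brown adipocyte sum was 5316 TPM and 232 without Cox7a1, Cox8b and Ppargc1a, a setting chosen after seeing the data. Leaving out each mouse gave a median SD of 0.29 to 0.33, a biological coefficient of variation of 0.477 to 0.536, and a smooth muscle sum of 1109 to 5674 TPM against 4367, lowest without Ctrl 1. Of the 25 most abundant nuclear genes, 16 stayed among the first 25 when counts scaled to the library total were not divided by length and 19 to 24 under the other settings. Of the 25 most variable genes, 15 were among the first 25 without Ctrl 1 and 14 without Ctrl 2, against 18 to 23 under the other settings. Of 299 levels of named genes, 247 moved by no more than 1 SD with the longest transcript as the length. With totals without mitochondrial genes, 262 of 297 did. For 4 values, the median and the mean without 1 mouse cannot lie more than 1 SD from the mean. Those settings could not fail this limit and are not counted. No paired analysis was possible because a single group was described and no groups were compared. With 4 mice and no technical repeats, differences between mice and between dissections or library preparations cannot be told apart.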

Other observations

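The sum of the 37 mitochondrial genes ran from 123367 TPM in Ctrl 1 to 223494 in Ctrl 4, so that totals without them raise nuclear levels more in Ctrl 4 than in Ctrl 1. Genes outside the lists differed between mice too, and the following were named after their values were seen. Areg, the growth factor amphiregulin of epithelium and leukocytes, had 19.7, 0.716, 15.7 and 28.0 TPM in Ctrl 1 to Ctrl 4, with Ctrl 2 alone near 0. Slc17a7, a vesicular glutamate transporter, had 2.79, 54.8, 4.41 and 2.63 TPM, with Ctrl 2 alone high.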
